A study of Mus musculus with 12 samples.

Results

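CD2 and the receptors of the SLAM family are adhesion molecules of the immunoglobulin superfamily, and their genes were followed here in germinal centre (GC) B cells of the mouse spleen. The 7 genes are Cd2, Cd48, Ly9, Cd84, Slamf1, Slamf6 and Slamf7, out of 19938 genes that have a probe set naming a single gene. Where a gene has several such probe sets the one with the highest mean over the 12 arrays is taken, but each of the 7 had exactly 1, so no measured value entered that choice. All 7 were among the 11206 genes bright enough to be tested, meaning that at least 3 arrays lay at or above their own median. The family was proposed with results of these data known, among them the lower Cd2 value of high-affinity cells in the light zone. That result compares high-affinity with low-affinity light zone arrays. Each difference of Cd2 that includes light zone arrays of either affinity is therefore given as a description with no test.

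The donor cells were SwHEL B cells, whose transgenic receptor recognises hen egg lysozyme, marked by CD45.1. The recipients were C57BL/6J mice, marked by CD45.2, and the antigen was the lysozyme mutant HEL3x coupled to sheep red blood cells. On day 10, donor GC cells (CD45.1+, CD45.2-, IgG1+, CD38 low) of female mice were sorted by zone and by affinity into 4 groups of 3 arrays each. LZ_high and LZ_low are light zone cells (CD86 high, CXCR4 low) of high and low affinity, and DZ_high and DZ_low are dark zone cells (CXCR4 high, CD86 low) of high and low affinity. All 4 groups share the receptor, the antigen, the day and the IgG1+ gate, so they describe 1 engineered receptor specificity. The gate for affinity is not described in the labels, which also name no animal behind an array, so a p-value here refers to the spread among these arrays, part of which may be technical. The RNA was amplified before labelling.

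In a germinal centre, B cells divide and mutate their receptor genes in the dark zone and then test the new receptor in the light zone, where they take up antigen and compete for follicular helper T cells. CD2 and the SLAM receptors sit on both partners of such contacts: CD48 is the ligand of CD2 in the mouse, and Ly9, CD84, SLAMF1, SLAMF6 and SLAMF7 each bind a copy of themselves on the opposing cell. The tails of Ly9, CD84, SLAMF1, SLAMF6 and SLAMF7 recruit the small adaptors SAP or EAT-2, and SAP connects receptors to Src family kinases. T cells and other leukocytes also express most of these genes.

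The values are RMA expression values, 1 per probe set and array, taken as log2 from their range because the base is not stated, and differences below are in log2 units with the standard error (SE) of a limma fit over all 12 arrays. Each group has 1 array in each of 3 matched sets, defined by a suffix that the sample descriptions share, and the array numbers are those of the sets. The 4 arrays of set 3 stood apart on the first principal component, with scores of 12.5 to 52.9 against -26.4 to -6.71 for the others. All 7 B cell and GC markers with a probe set (of 10 listed) lay above the median of each array. A list of 10 T cell markers averaged 6.23 on the LZ_low array of set 3 and 5.06 to 5.61 on the other 11 arrays. On the LZ_low and DZ_low arrays of set 3 the T cell receptor complex gene Cd3g was at 7.61 and 6.67, against 3.76 to 4.65 on the other 10. Cd3d, of the same complex, was at 7.32 and 5.00 on these arrays, against 4.02 to 4.66 on the other 10. The T cell marker Thy1 was at 8.05 and 6.28, against 5.63 to 6.62. Cd4 and Il7r lay below the median of every array. In bulk samples, fewer cells of a type and less RNA per cell cannot be told apart.

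The first comparison asks how light zone cells differ from dark zone cells. Slamf1 rose in the light zone by a fold change of 2.08 over both affinities, and it was the only gene to pass the test among the 6 other than Cd2. Its values were 8.13, 8.12 and 8.12 in DZ_high and 8.76, 8.62 and 9.05 in DZ_low, in the order of the matched sets. They were 9.77, 9.15 and 9.33 in LZ_high and 10.02, 9.59 and 9.26 in LZ_low. All 6 LZ arrays lay above all 6 DZ arrays. Slamf1 encodes SLAMF1 (CD150), a receptor that binds itself on the opposing cell. The difference was 1.06 ± 0.16 (SE, 3 arrays per group), with an adjusted p of 0.0213 by limma with Benjamini-Hochberg adjustment over all tested genes. It was 1.45, 1.00 and 0.71 in sets 1, 2 and 3. At high affinity it was 1.30 ± 0.22 (adjusted p = 0.0897 by limma) and at low affinity 0.82 ± 0.22 (0.489), with the higher LZ values in 3 of 3 sets each time. The call was lost without DZ_high replicate 1 (adjusted p = 0.0524), DZ_low replicate 1 (0.0749), DZ_low replicate 2 (0.0541) or LZ_low replicate 2 (0.0644), with differences of 1.01 to 1.07. The order of the groups was LZ_low, LZ_high, DZ_low and DZ_high. The LZ groups overlapped each other, and each step below them was a gap without overlap (0.61 and 0.69).

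Cd2 had its lowest values in the light zone cells of high affinity. Cd2 encodes the receptor of CD48, which helps hold B and T cells together. Its values were 10.27, 10.54 and 10.56 in DZ_high and 11.09, 10.80 and 11.12 in DZ_low. They were 9.27, 9.80 and 9.33 in LZ_high and 10.43, 10.43 and 10.87 in LZ_low. The LZ_high arrays lay below all the others, while LZ_low overlapped both DZ groups. The zone difference, a description because it includes light zone arrays, was -0.71 ± 0.14, a fold change of 1.63. It was -0.83, -0.55 and -0.74 in the 3 sets. At high affinity it was -0.99 ± 0.19, also as a description. At low affinity it was -0.42 ± 0.19, again as a description, because the LZ_low arrays were part of the result known beforehand.

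Of the 6 genes other than Cd2, limma called 1 between zones, Slamf1, against 0.419% of all tested genes (47 of 11206), and with the replicate block also 1, against 1.2% (135 of 11206). Slamf1 was also the only one of the 7 whose 6 LZ and 6 DZ arrays did not overlap, which held for 0.991% of tested genes. The median zone difference of the 6 was 0.18, with 4 positive and 2 negative, beside -0.004 over all tested genes. At high affinity limma called 0 of the 6, against 0.0357% of tested genes. An unadjusted p under 0.05 was found for 3 of the 6 there, beside 4.53% of tested genes. At low affinity it called 0 of the 6, also against 0.0357%, with 2 of the 6 at an unadjusted p under 0.05 beside 4.69%. With the fixed block it called 0 of the 6 at high affinity against 0.0803% (3 unadjusted, beside 8.09%). At low affinity it then also called 0 of the 6, against 0.223% (2 unadjusted, beside 7.73%). The count at high affinity depends on the form of the block, since with the set as a random block Slamf1 passed there. Of the 6, groups did not overlap for Ly9, Slamf1 and Slamf6 at high affinity, beside 7.38% of tested genes. They did not overlap for Ly9, Slamf1 and Slamf7 of the 6 at low affinity, beside 9.26%.

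**Figure D1:**
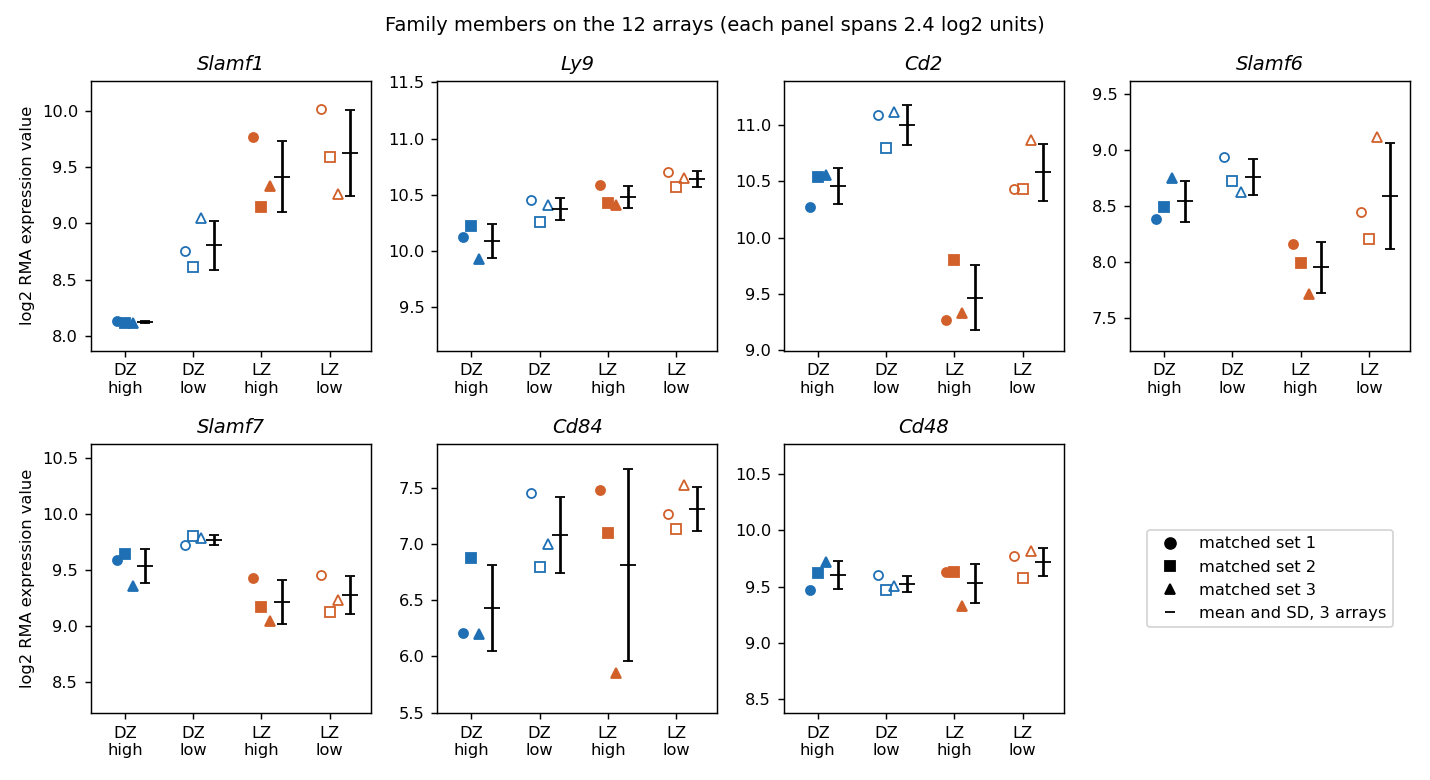
Log2 RMA expression values of the 7 genes on the 12 arrays, by group, with filled symbols for high and open symbols for low affinity, blue for dark and orange for light zone, and 1 symbol shape per matched set; the bars are the mean and SD of 3 arrays. Slamf1 has its lowest mean in DZ_high (8.12) and its highest in LZ_low (9.63), Cd2 has its lowest values in LZ_high (9.27 to 9.80), and Cd48 lies between 9.33 and 9.81.

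The promoters of 5 of the 7 genes (Slamf7, Cd48, Slamf1, Cd84 and Slamf6) were found in a RefSeq table of the build GRCm38.p6. Shown are the 250 bases before the start of Slamf1, which was higher in the light zone, and of Slamf6 and Slamf7, which lie in the same gene cluster and had lower values there. Capitals mark matches, on either strand, to AGGAAG, a core bound by ETS factors, or to CAGNTG, an E box form.
Slamf1, chr1:171766882-171767131, plus strand: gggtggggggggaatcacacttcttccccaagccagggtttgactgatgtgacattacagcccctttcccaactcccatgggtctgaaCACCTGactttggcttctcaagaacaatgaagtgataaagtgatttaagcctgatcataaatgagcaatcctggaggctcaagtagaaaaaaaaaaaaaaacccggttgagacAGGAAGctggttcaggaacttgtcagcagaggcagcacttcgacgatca
Slamf6, chr1:171917212-171917461, plus strand: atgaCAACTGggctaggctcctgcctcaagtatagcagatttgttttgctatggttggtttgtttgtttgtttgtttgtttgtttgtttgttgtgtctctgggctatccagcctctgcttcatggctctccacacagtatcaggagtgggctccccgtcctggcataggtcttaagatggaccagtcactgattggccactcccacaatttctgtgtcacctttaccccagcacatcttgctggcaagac
Slamf7, chr1:171649000-171649249, minus strand: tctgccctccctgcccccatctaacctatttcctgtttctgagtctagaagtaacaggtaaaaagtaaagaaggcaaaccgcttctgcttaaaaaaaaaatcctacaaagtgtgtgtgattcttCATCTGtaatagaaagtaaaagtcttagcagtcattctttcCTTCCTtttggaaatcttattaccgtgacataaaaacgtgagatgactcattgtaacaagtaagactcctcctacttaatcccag

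Slamf1 and Slamf7 each had 1 match to both letter patterns, and Slamf6 had 1 to CAGNTG, so matches were present in windows of both the gene that rose and genes with lower values. Of all 32851 windows in the table, 29.5% held AGGAAG and 44.8% held CAGNTG. None of the 5 windows held the octamer ATGCAAAT (found in 1.6% of all windows), the forkhead pattern GTAAACA (3.17%), or the patterns searched for interferon regulatory factors (2.98%) and NF-kB (0.356%). A match is a stretch of letters and no measured site, and the arrays do not bear on binding.

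Ly9 followed Slamf1 with a smaller difference. It encodes CD229, another receptor that binds itself. Its values were 10.12, 10.22 and 9.92 in DZ_high, 10.45, 10.26 and 10.41 in DZ_low, 10.59, 10.43 and 10.41 in LZ_high and 10.70, 10.57 and 10.65 in LZ_low. Within each affinity every LZ array lay above every DZ array, and the order of the groups was that of Slamf1. The zone difference of 0.33 ± 0.10 did not pass (adjusted p = 0.281 by limma) and was 0.36, 0.25 and 0.37 in the 3 sets. Neighbouring groups in that order overlapped except for DZ_low and DZ_high.

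Slamf6 and Slamf7 had lower values in the light zone, as Cd2 did, and neither passed. Slamf6 encodes Ly108, a receptor of T and B cells that binds itself. Its values were 8.39, 8.49 and 8.75 in DZ_high, 8.94, 8.72 and 8.63 in DZ_low, 8.16, 7.99 and 7.71 in LZ_high and 8.45, 8.21 and 9.11 in LZ_low. LZ_high lay below every array of the other groups, and the LZ_low array of set 3 was the highest of the 12. The zone difference was -0.38 ± 0.16 (adjusted p = 0.639 by limma). Slamf7, whose product CRACC is found on plasma cells and natural killer cells, had 9.59, 9.64 and 9.36 in DZ_high, 9.72, 9.80 and 9.79 in DZ_low, 9.43, 9.17 and 9.05 in LZ_high and 9.46, 9.13 and 9.24 in LZ_low. The DZ_low arrays lay above all the others, and the LZ groups overlapped DZ_high. Its zone difference was -0.41 ± 0.11 (adjusted p = 0.213 by limma), negative in 3 of 3 sets. The plasma cell marker list, a cell type that also expresses Slamf7, had a median zone difference of -0.34 over 5 tested members. Of these 5, 4 had negative differences, and limma called 1, beside 0.419% of tested genes called between zones. This was Jchain, the joining chain gene of secreted IgM and IgA, which fell (-0.97 ± 0.18, adjusted p = 0.0427 by limma). The 1 positive difference was that of Irf4, a transcription factor gene, at 0.74 ± 0.21, and it did not pass (adjusted p = 0.25 by limma). Prdm1 and Tnfrsf17 lay below the median of every array. The mean of the list was 7.51 to 7.66 in DZ_high, 7.04 to 7.39 in DZ_low, 7.03 to 7.46 in LZ_high and 6.96 to 7.21 in LZ_low, and its part in the Slamf7 values was not tested.

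Cd84 and Cd48 showed no zone difference larger than the spread of their arrays. Cd84, whose product stabilises T and B cell contacts in the GC, was at 6.21, 6.87 and 6.20 in DZ_high, 7.46, 6.80 and 6.999 in DZ_low, 7.48, 7.10 and 5.86 in LZ_high and 7.27, 7.13 and 7.53 in LZ_low. The LZ_high array of set 3 was the lowest of the 12, and all neighbouring groups overlapped. The zone difference was 0.31 ± 0.26, with a 95% confidence interval of -0.27 to 0.88. It was 0.55 without that array and 0.14 without LZ_high replicate 1, the ends of the range over the fits without 1 array. Cd48, the ligand of CD2, was at 9.47, 9.62 and 9.72 in DZ_high, 9.60, 9.47 and 9.50 in DZ_low, 9.63, 9.63 and 9.33 in LZ_high and 9.77, 9.58 and 9.81 in LZ_low. All 4 groups overlapped, and the zone difference was 0.06 ± 0.10, with a 95% confidence interval of -0.16 to 0.29.

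The second comparison asks what distinguishes high-affinity from low-affinity cells. Cd2 had the largest difference of the family: in the light zone its values were 9.27 to 9.80 at high and 10.43 to 10.87 at low affinity, a difference of -1.11 ± 0.19 that was negative in 3 of 3 sets (-1.17, -0.63 and -1.55). This difference was known when the family was chosen, so it is given without a test. In the dark zone, on other arrays, Cd2 was at 10.27 to 10.56 at high and 10.80 to 11.12 at low affinity. The groups did not overlap there either. The dark zone difference of -0.54 ± 0.19 did not pass (adjusted p = 1 by limma) and was -0.82, -0.26 and -0.56 in the 3 sets. In both zones together the difference was -0.83 ± 0.14, a fold change of 1.78, also as a description. LZ_high, which combines the lower zone and the lower affinity side, held the lowest Cd2 values.

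Slamf1 also had lower values at high affinity. Its 3 DZ_high arrays, between 8.12 and 8.13, lay below the DZ_low arrays, between 8.62 and 9.05, a difference of -0.69 ± 0.22 (adjusted p = 1 by limma) that was negative in 3 of 3 sets. In the light zone the difference was -0.21 ± 0.22 and positive in set 3 (0.07). It moved with single arrays: leaving out replicate 1 of LZ_low gave -0.01, replicate 2 of LZ_high -0.08, and replicate 1 of LZ_high or replicate 3 of LZ_low -0.39. The interaction of zone and affinity, which compares the affinity difference in LZ with that in DZ, was 0.48 ± 0.31 for Slamf1 (adjusted p = 1 by limma), so the zones were not shown to differ. For Cd2 it was -0.57 ± 0.28, given as a description.

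In the other genes, Slamf6 had an affinity difference of -0.63 ± 0.23 in the light zone, without overlap (adjusted p = 0.999 by limma). That value rests on set 3: it was -0.29, -0.22 and -1.40 in the 3 sets and -0.37 without LZ_low replicate 3, the array with the highest T cell marker level. The Cd2 difference in the light zone was -0.96 without that array, and its zone difference was -0.78. Without the whole of set 3 they were -0.90 and -0.69, and the zone difference of Slamf1 was 1.23 (adjusted p = 0.0121 by limma). Cd84 at -0.58 ± 0.26 over both zones had values near 0 in set 2 (0.02) and -1.24 in set 3, and it was -0.25 without set 3. Ly9 at -0.22 ± 0.10 was negative in 3 of 3 sets, Slamf7 was at -0.15 ± 0.11 and Cd48 at -0.06 ± 0.10.

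**Figure D2:**
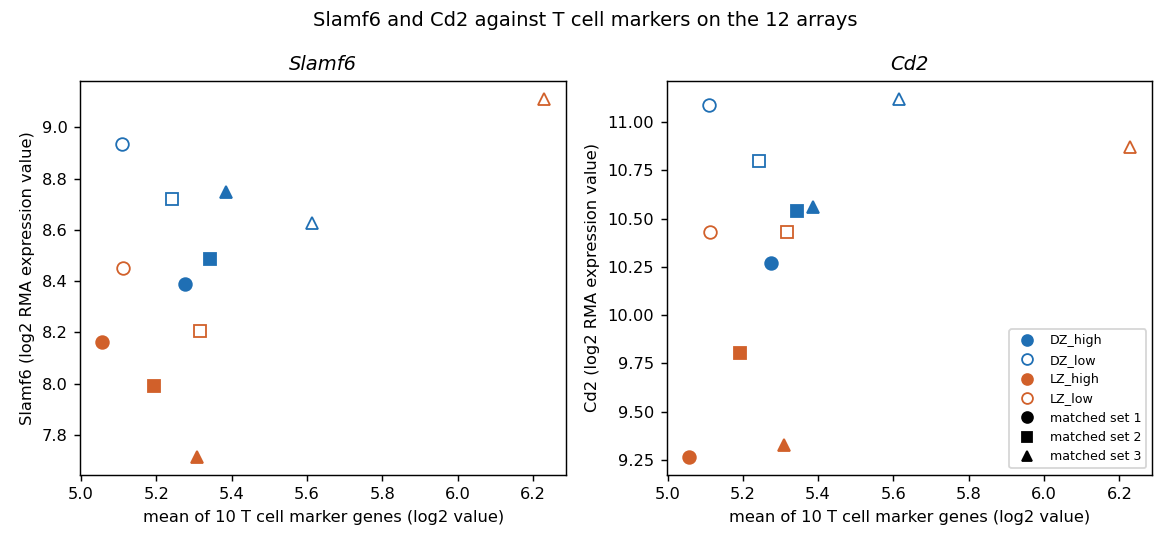
Log2 RMA expression values of Slamf6 (left) and Cd2 (right) against the mean log2 value of 10 T cell marker genes, 1 point per array, coloured by zone, filled for high affinity and shaped by matched set. The LZ_low array of set 3 stands at the right (6.23) with the highest Slamf6 value (9.11), while the 3 LZ_high arrays have the lowest Cd2 values at T cell marker levels of 5.06 to 5.31.

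For affinity limma called 0 of the 6 genes other than Cd2 in the light zone, 0 of 7 in the dark zone and 0 of the 6 over both zones, against 0% of tested genes in each. With the replicate block the counts were also 0, against 0%. Of the 6 genes other than Cd2, 1 had an unadjusted p under 0.05 in the light zone, 1 in the dark zone and 4 over both zones, beside 4.16%, 2.2% and 5.25% of tested genes. The values of the 6 were all negative in the light zone and over both zones, and 5 of the 6 were in the dark zone, beside 50.3%, 50.4% and 49.6% of tested genes. The medians of the 6 genes were -0.20 in the light zone, -0.33 over both zones and -0.26 in the dark zone. Over all tested genes they were -0.002, -0.002 and 0.002. Groups did not overlap for 1 of the 6, Slamf6, in the light zone, beside 8.81% of tested genes, and for 4 of 7, Cd2, Ly9, Slamf1 and Slamf7 in the dark zone, beside 7.16%. Over both zones the 6 high-affinity and 6 low-affinity arrays overlapped for all 7 genes, beside 0.268% of tested genes without overlap. The interaction had 0 of the 6 genes called against 0%, and 0 of the 6 at an unadjusted p under 0.05 by limma, without or with the block, beside 1.58% and 3.64% of tested genes. The light zone, dark zone and combined values share arrays and are not independent of each other.

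**Figure D3:**
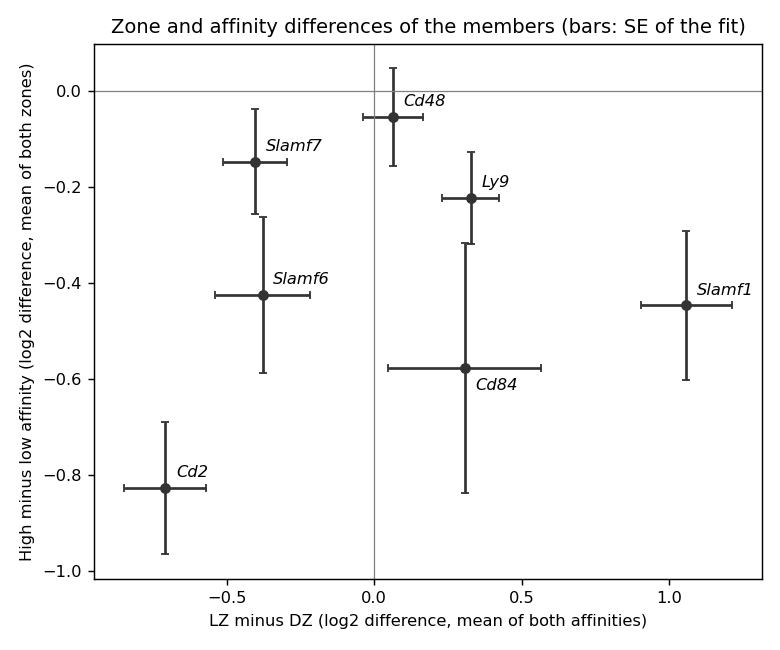
Zone difference (horizontal axis) against affinity difference (vertical axis) of each of the 7 genes, both in log2 units, with bars for the SE of the fit. The genes spread from Cd2 at -0.71 to Slamf1 at 1.06 between zones, and all 7 lie below 0 for affinity. The affinity signs of Cd48 and Slamf7 are not settled.

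In the order of the mouse genome, Ly9, Slamf7, Cd48, Slamf1, Cd84 and Slamf6 follow each other on chromosome 1, with Cd244a before Ly9 and a pseudogene-named entry, Tma7-ps, between Cd48 and Slamf1 in the reference table. Cd2 lies on chromosome 3. Some direct neighbours had zone differences of opposite sign, Ly9 (0.33) beside Slamf7 (-0.41), Slamf7 beside Cd48 (0.06), and Cd84 (0.31) beside Slamf6 (-0.38). The 95% confidence intervals of Cd48 (-0.16 to 0.29) and Cd84 (-0.27 to 0.88) included 0, so the signs of these 2 genes are not settled. Slamf1 (1.06) and its neighbour Cd84 were both positive, as was Cd48. Of the cluster's genes Slamf1 alone passed the test. The neighbour Cd244a, which encodes another receptor of CD48, was too dim to be tested, with group means of 5.03 to 5.18.

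**Figure D4:**
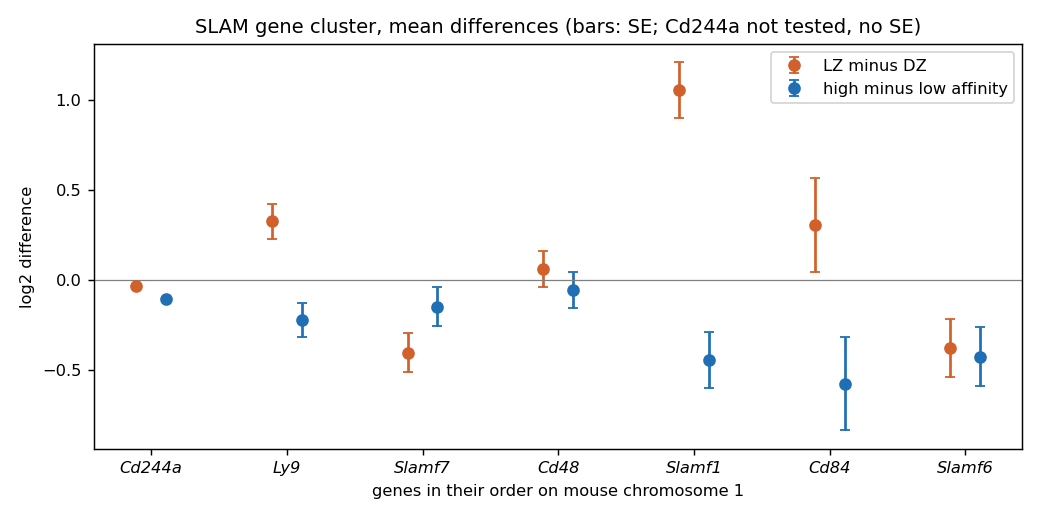
Log2 differences of the SLAM cluster genes in their order on mouse chromosome 1, for LZ minus DZ (orange) and high minus low affinity (blue), each the mean over the other factor, with bars for the SE of the fit (none for Cd244a, which was not tested). Slamf1 stands out at 1.06 between zones. Neighbouring genes fall on both sides of 0, but the signs of Cd48 and Cd84 between zones are not settled.

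Across the 12 arrays several pairs of genes varied alike once the mean of each matched set was taken off. Slamf1 and Ly9 had a Pearson correlation of 0.902, Cd2 and Slamf6 0.877, Ly9 and Cd84 0.708, Cd2 and Slamf7 0.682, and Cd48 and Cd84 0.643. Slamf1 correlated at -0.343 with Cd2 and at -0.524 with Slamf7. These are descriptions over arrays that share 4 groups. The groups held 90.1% of the variance of Cd2, 87.4% of that of Slamf1 and 83.5% of that of Ly9, but 36.7% of that of Cd48, beside a median of 21.2% over all tested genes. The Cd2 share includes the LZ_high arrays, whose low values were known when the family was chosen, so it is only a description. The matched sets held 1.91% to 13.3% of the variance of the 7 genes, beside a median of 28%.

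The tested genes most like Cd2 over the 12 arrays, by that correlation, were Fli1 (0.947), an ETS transcription factor gene, Ppp3cc (0.927), a calcineurin subunit gene, and Vim (0.925), the vimentin gene. Those most like Slamf1 were Dock10 (0.966), a guanine nucleotide exchange factor gene, Arid3b (0.964) and Fcer2a (0.961), which encodes CD23. Ly9 was most like the integrin gene Itgb1 (0.983), Dock10 (0.974) and Bank1 (0.971), a B cell scaffold gene. The others were closest to Abi1, Kmo and Cep20 (Slamf6, 0.918 to 0.935), Gdi2, Slc41a2 and Cpsf2 (Slamf7, 0.925 to 0.947), Sars2, Exoc4 and Zfand3 (Cd84, 0.973 to 0.983) and Setd1a, Irf1 and Pogz (Cd48, 0.962 to 0.965). Each gene named is among the 3 highest of 10658 candidates, so its correlation is high by choice. With the set means left in, the correlations ran from 0.401 (Sars2 with Cd84) to 0.957 (Itgb1 with Ly9).

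Signalling partners of the receptors were followed as lists. Of 12 genes of SLAM signalling, 9 were tested, and 0 were called by limma between zones or affinities, without or with the replicate block. Of all tested genes, 0.419% were called between zones over both affinities (1.2% with the block) and 0% for affinity. At such shares, 0 calls are no result about these 9 genes. The median of the list was 0.06 for LZ minus DZ and -0.19 for high minus low affinity. For affinity 9 of 9 were negative, beside 50.4% of tested genes. Sh2d1a, which encodes SAP, was too dim to be tested (group means 4.19 to 4.58), while Sh2d1b1, which encodes EAT-2, was tested and averaged 6.96 to 7.43; both were named after their values were seen. The kinase gene Fyn, which acts downstream of SAP, was at 7.63, 8.50 and 8.51 in DZ_high, 9.19, 8.74 and 9.09 in DZ_low, 9.37, 9.20 and 7.67 in LZ_high and 9.81, 9.54 and 9.83 in LZ_low. Its high-affinity and low-affinity arrays did not overlap within either zone, beside 8.81% of tested genes in the light and 7.16% in the dark zone. The affinity difference was -0.89 ± 0.28 and did not pass (adjusted p = 0.852 by limma). In the light zone it was -0.44, -0.34 and -2.16 in the 3 sets, largest in set 3. The zone difference was 0.63 ± 0.28 (adjusted p = 0.684 by limma), with 1.18, 0.75 and -0.05 in the 3 sets. The phosphatase gene Ptpn6 (SHP-1) had a zone difference of 0.43 ± 0.14 (adjusted p = 0.34 by limma), positive in 3 of 3 sets. Ptpn11 (SHP-2) had an affinity difference of -0.27 ± 0.19 (adjusted p = 0.964 by limma).

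Of 5 genes whose products bind the CD2 tail or act with those that do, 5 were tested, and limma called 0 between zones or affinities, without or with the block. The shares over all tested genes were 0.419% between zones (1.2% with the block) and 0% for affinity. Pstpip1 had an affinity difference of -0.51 ± 0.17 (adjusted p = 0.852 by limma), with 7.64 to 7.80 in DZ_high and 7.88 to 8.88 in DZ_low. Its light zone groups overlapped, with 7.61 to 7.90 in LZ_high and 7.87 to 8.41 in LZ_low. Sh3kbp1 was at -0.27 ± 0.11 for affinity and 0.20 ± 0.11 for zone, and Cd2bp2 at 0.19 ± 0.19 for zone. The related receptor gene Slamf9 had differences of -0.31 ± 0.12 between zones (adjusted p = 0.538 by limma) and 0.24 ± 0.12 for affinity, the opposite sign to the 7 genes. Among 10 other molecules of B and T cell contact, 9 were tested, with a median zone difference of 0.28. Of the 9, 1 was called higher in the light zone, beside 0.419% of tested genes called between zones. This was the gene Cd86, whose product was used to sort the zones (1.13 ± 0.11). For affinity 9 of 9 were negative, beside 50.4% of tested genes, with a median of -0.18. Among them were Cd86 (-0.48 ± 0.11, adjusted p = 0.624 by limma) and the adhesion gene Icam2 (-0.42 ± 0.11, 0.849). The 7 B cell and GC markers were also 7 of 7 negative for affinity, with a median of -0.22.

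Markers of other cells that express family genes differed as follows. The T cell list had 5 tested members of 10, with a median affinity difference of -0.15 and 4 of 5 negative, beside 50.4% of tested genes. None was called by limma, beside 0% of tested genes for affinity and 0.419% between zones. Its list mean was 5.28 to 5.39 in DZ_high, 5.11 to 5.61 in DZ_low, 5.06 to 5.31 in LZ_high and 5.11 to 6.23 in LZ_low. Of 7 natural killer cell markers, 5, Ncr1 and Klrb1c among them, lay below the median of every array. Gzma, of the same list, was at 8.11 and 8.06 on the LZ_low and DZ_low arrays of set 3, the arrays with high Cd3g, and at 5.13 to 7.39 on the other 10. Of 9 macrophage markers with a probe set, 5, Adgre1 and Csf1r among them, lay below it on every array. Lyz2, of that list, was highest on the LZ_low array of set 3 (8.24, against 3.84 to 7.09 on the other 11). Cd68 lay above the median of every array, with a zone difference of 0.65 ± 0.18 that did not pass (adjusted p = 0.234 by limma). The granulocyte list, 9 markers with 6 tested, varied widely between arrays, and none was called by limma. Its list mean was 5.29 to 6.87 in DZ_high, 5.42 to 6.30 in DZ_low, 5.19 to 6.81 in LZ_high and 5.38 to 6.87 in LZ_low. S100a9, of that list, was at 6.11, 10.37 and 9.37 in DZ_high and 6.065, 10.35 and 6.45 in LZ_high, by set. In DZ_low it was at 7.68, 9.58 and 7.21, and in LZ_low at 6.47, 9.86 and 9.82. Cd3d, Thy1, Gzma, Lyz2, Cd68 and S100a9 were named after their values were seen. The part of such cells in the affinity differences of Cd2 and Slamf6 was not tested. Over all alternative fits, the light zone affinity difference ran from -1.28 to -0.73 for Cd2 and from -0.824 to -0.251 for Slamf6. Fits without set 3, or without its low-affinity arrays, were among these.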

How the data were processed

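Per the labels' protocols, RNA of the sorted cells was amplified, biotin-labelled and hybridized to 12 one-colour arrays. The authors deposited RMA values per probe set, read here as log2. The method RMA and the build mm8 come from the submitters' processing notes. The base is not stated in the sources used here and was taken from the range, 1.99 to 13.74; fold changes rest on it. Of 28853 probe sets, 21789 had 1 gene symbol. No detection calls were used here, and the number of arrays limits the precision. Group means were fitted with limma 3.58.1 in R 4.3.3 (lmFit, eBayes, two-sided) over 11206 genes, and an adjusted p below 0.05 was called; the fit was tested on simulated data. The members, lists and tests were chosen with earlier results of these data known. Named genes were the members, called list genes, otherwise the 2 smallest p per list in the mean zone and affinity contrasts, and the 3 genes most correlated with each member. Arrays sharing a suffix were read as a matched set and used as a replicate block in alternatives, but the labels do not say what the suffix marks. Same-set arrays deviated together in 17 of 18 pairs (correlation over 0.1, median 0.406, lowest -0.0712). Correlations of pairs from different sets are not given here, so these values do not show what the sets share. The fit without the block came first. Alternatives were blocks, filters, normalizations, moderation, array weights, the groups compared, probe set means and arrays left out.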

Additional observations from a re-analysis of the deposited data

How the results depend on the processing

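Of 49 results (7 genes in 7 contrasts), 42 kept their sign in each of the up to 26 alternatives run and 7 did not. Cd48 between zones at high affinity was 0.0222 with array weights and 0.0831 without matched set 3, without or with the replicate block, and ranged from -0.14 to 0.0265 over the fits without 1 array. Slamf6 between zones at low affinity ranged from -0.432 to 0.0197 over those fits, and Cd84 was -0.0927 without the LZ_low array of set 3 with the block. For affinity in the light zone, without set 3 (with or without the block) Cd84 was 0.088 and Slamf7 0.0077; Slamf7 ranged from -0.166 to 0.0337 over the fits without 1 array. The interaction of Cd84 ranged from -0.179 to 0.635 over those fits, and that of Slamf6 was 0.139 without set 3, with or without the block. The causes were not tested.

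Counts over all 7 genes include Cd2, whose differences with light zone arrays are descriptions and count for nothing here. Between zones that count was 1, and 2 with the fixed or random replicate block, quantile normalization or eBayes with trend and robust, 4 with array weights, and 0 to 1 without 1 array. At high affinity it was 1 with the random block and 2 with array weights, and for affinity in the light zone and over both zones 1 with array weights. Over the 6 genes other than Cd2 the zone count was 1 in the first 4 of these and 3 with array weights (Slamf1, Slamf6 and Slamf7), the count at high affinity was 1 with the random block or array weights, and it was 0 for affinity. The fixed block changed no call of the 6. Over all genes, the zone count of 47 was 135 with the fixed and 110 with the random block, 80 with quantile normalization, 28 after median centring, 327 with array weights, 12 to 67 without 1 array, and 87 without set 3, or 95 with the block; without both low-affinity arrays of set 3 it was 12. The 4 calls at high affinity became 9 with the fixed and 12 with the random block, 146 with array weights, 0 with only the groups compared, 2 to 5 without 1 array and 2 without both low-affinity arrays of set 3. The 4 at low affinity became 25, 18, 40 and 0 in the first 4 of these, 7 with quantile normalization, 0 to 5 without 1 array, and 0 without the LZ_low array of set 3 with the block or without both low-affinity arrays. The 0 calls for affinity became 103 in LZ and 52 over both zones with array weights, 1 over both zones with the random block or quantile normalization, and 0 to 1 in DZ without 1 array. Fits without the LZ_low array of set 3 with the block, and without both low-affinity arrays, were added after seeing the data.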
